A study of Mus musculus with 10 samples.

Results

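The genes described here are p53 (*Trp53*), its relative *Trp63*, the p53 inhibitor *Mdm2*, and 6 genes that p53 activates: *Cdkn1a*, *Ccng1*, *Bax*, *Bbc3*, *Pmaip1* and *Aen*. H3K4me3 (trimethylation of lysine 4 of histone H3) was read at every 5 kb window that carried the name of 1 of these 9 genes, which gave 68 windows of 544879 in the genome and 9 genes of 24678. *Aen* was chosen by its cKO minus WT difference in H3K4me3, one of the largest losses, so its values are described with no test. The other 8 genes were chosen for their place in the pathway, with earlier results of these data known, and hold 64 windows.

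H3K4me3 was measured in germinal vesicle (GV) oocytes, the stage arrested in meiosis before maturation, from 21-day-old females of strain C57BL6 (C57BL/6OlaHsd in the study's methods). Both genotypes carried 2 floxed alleles of *Setd1b*, which encodes an H3K4 methyltransferase. The cKO oocytes were in addition Gdf9-Cre positive, with Cre active from early folliculogenesis onwards, and the WT oocytes are labelled as Gdf9-Cre negative. The study's methods also count heterozygous females with Cre among the WT. Approximately 200 oocytes were pooled for each library of ultra-low input native ChIP-seq, with 3 cKO libraries (replicates 1, 3 and 4), 3 WT libraries (replicates 1, 2 and 4) and 2 input libraries of each genotype (replicates 1 and 4).

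p53 is a transcription factor that is stabilised after DNA damage and switches on genes for cell cycle arrest, repair and apoptosis. MDM2, itself a p53 target, marks p53 for degradation and so closes a feedback loop. In the female germline the main guardian is TAp63, the long form of p63, which is held inactive in resting oocytes and drives their death through *Bbc3* (PUMA) and *Pmaip1* (NOXA) after damage. The short form, ΔNp63, starts from a promoter inside the gene and is known from basal layers of epithelia. H3K4me3 marks promoters and CpG islands, and in growing oocytes it also spreads over broad untranscribed domains.

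Promoter sequence was found in the RefSeq table for 7 of the 9 genes, and 3 are printed because the results turn on them. Each ends 1 base before the RefSeq gene start, is written 5′ to 3′ in the direction of the gene (the plus strand of GRCm38.p6 for all 3), and has its CpG dinucleotides in capitals. The *Aen* promoter, chr7:78895677-78895926, held 15 CpGs in 250 bases, and it lies in the window with the largest difference among the 68. The *Cdkn1a* promoter, chr17:29090729-29090978, held 2 CpGs in 250 bases, although its 5 kb window as a whole held 156. The 103 bases before the start of *Trp53*, chr11:69580256-69580358, held 4 CpGs.
Aen: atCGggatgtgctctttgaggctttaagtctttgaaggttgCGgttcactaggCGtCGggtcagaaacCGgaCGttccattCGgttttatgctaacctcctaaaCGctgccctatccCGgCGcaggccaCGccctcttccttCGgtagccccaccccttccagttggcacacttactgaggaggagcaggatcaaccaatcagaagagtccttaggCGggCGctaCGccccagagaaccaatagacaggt
Cdkn1a: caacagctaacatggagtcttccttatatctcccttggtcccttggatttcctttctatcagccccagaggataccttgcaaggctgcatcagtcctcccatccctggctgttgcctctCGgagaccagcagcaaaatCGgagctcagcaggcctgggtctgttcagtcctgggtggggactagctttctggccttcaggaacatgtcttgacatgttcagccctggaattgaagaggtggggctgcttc
Trp53: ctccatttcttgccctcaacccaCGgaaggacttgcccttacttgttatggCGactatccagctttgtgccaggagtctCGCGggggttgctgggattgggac

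The p53 response element consists of 2 copies of a half-site of 10 bases. Perfect matches to the published half-site consensus, which reads the same on both strands, were searched in the windows. At least 1 half-site was present in 57 of the 68 windows (83.8%), and in 78.9% of all windows of the genome. A pair of half-sites separated by 0 to 13 bases was present in 1 of the 68 windows, and in 1.25% of all windows. That pair lay in the *Cdkn1a* promoter printed above, at chr17:29090906-29090937, with its half-sites in capitals around a spacer of 12 bases.
Cdkn1a pair: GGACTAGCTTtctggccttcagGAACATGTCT
A match is a description of the letters and not a bound site. Half-sites with a mismatch were not searched, so the pair shown need not be the response element of *Cdkn1a*.

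Values are normalized RPKM, a scale on which the authors brought the 40th percentile (1.23) and the 99th percentile (6.77) of the windows to the same value in all 6 libraries, and on which the median window stood at 1.46 in WT and 1.54 in cKO. Each H3K4me3 library held 10856015 to 32775874 reads over the windows, and each input library 20756128 to 26566505. A window without reads had the value -1.02 in cKO replicate 3 and 0.810 in WT replicate 1, the lowest and the highest of the 6. cKO replicate 3 was the highest or the lowest of the 6 libraries in 57.8% of all windows. Input at the 68 windows ranged from 0.662 to 3.59 RPM (reads scaled to library size), with at least 17 reads in each input library, around a median of 2.02 over all windows. The promoter window of *Setd1b* had 4.50, 4.66 and 3.93 in cKO replicates 1, 3 and 4 and 7.56, 7.65 and 6.11 in WT replicates 1, 2 and 4 (limma, adjusted p = 0.0332), which reads the mark at the targeted gene and not its deletion. The summed H3K4me3 over the promoter windows of 10 oocyte genes was 53.03 to 55.71 in cKO and 61.1 to 67.7 in WT, and no gene of the list was listed near 0 (lowest WT mean 4.69). The cKO mean was nonetheless higher in 2 of these 10 genes (54.5% of protein-coding promoters), *Figla* (5.29 against 5.25) and *Gdf9* (10.7 against 7.46), whose promoter drives the Cre. Over 10 genes of granulosa and other somatic cells of the ovary it was 36.5 to 39.0 in cKO and 28.0 to 30.9 in WT, with WT means from 0.870 for *Fshr*, the FSH receptor, to 4.82 for *Amh*. The cKO mean was higher in 7 of these 10 genes and lower in *Nr5a1*, *Pecam1* and *Ptprc* (differences -1.28, -0.62 and -0.20). In the oocyte list 0 genes passed the test in limma, and in the somatic list 1 did (*Foxl2*, a granulosa cell transcription factor, 7.06 in cKO and 4.21 in WT as means), against 1.17% of protein-coding promoters called as gains and 0.776% as losses. H3K4me3 can mark genes that are silent in a cell, and the part of somatic cells in the differences below was not tested.

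*Aen* encodes a nuclease that p53 induces and that takes part in the breakdown of DNA in apoptosis. It lies at chr7:78895854-78911209 on the plus strand and is covered by 4 windows, each of which holds at least 1 of its exons. In the promoter window, chr7:78895001-78900000, cKO replicates 1, 3 and 4 had 4.22, 2.68 and 3.59 normalized RPKM. WT replicates 1, 2 and 4 had 8.08, 9.98 and 7.22. Every cKO library lay below every WT library. The means were 3.499 ± 0.775 (SD, n = 3) in cKO and 8.43 ± 1.41 (SD, n = 3) in WT, a difference of -4.93 normalized RPKM with an SE of 0.663. This was the fifth in order of size among the 2473 windows with a called decrease, which is the pattern the gene was chosen for. In pooled oocytes a lower mark in every cell and a mark in fewer cells cannot be told apart.

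These values rested on 62, 28 and 89 reads for the cKO libraries in the same order, and on 139, 103 and 231 for the WT libraries. As RPM (reads divided by the library total), these were 4.86, 2.35 and 3.06 in cKO and 10.6, 9.49 and 7.05 in WT. The groups did not overlap on this scale, which uses the same libraries by which the gene was chosen. The log2 fold change of whole reads in edgeR was -1.42. Input gave 2.03 and 2.41 RPM in the cKO libraries 1 and 4 and 1.48 and 1.78 in the WT libraries 1 and 4. Against input, the RPM of H3K4me3 was 5.70 times the input value in WT and 1.58 times in cKO. The WT mean lay at the 99.5th percentile of the promoter windows of 21913 protein-coding genes, whose median was 3.81. A loss of this size needs a high WT level, so this place follows in part from the choice of the gene. In cKO, 61.4% of these promoter windows had a mean at or above that of *Aen*. Without any 1 of the 6 libraries the difference stayed between -5.53 and -4.15, which describes the same libraries that the choice used.

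The differences in the other windows of *Aen* were smaller than in its promoter window. In the next window, 6.65 kb from the start to its centre, cKO had 1.12, 1.76 and 1.81 and WT had 2.28, 1.81 and 2.10, both close to the level of the median window. The third window had 2.12, 2.15 and 3.11 in cKO and 1.70, 2.59 and 2.01 in WT. The last window holds the 3′ end of *Aen* and the start of *Isg20*, an interferon-induced exonuclease gene, and had 3.34, 3.87 and 5.57 in cKO and 5.41, 4.54 and 5.16 in WT. The differences in these 3 windows were -0.50, 0.36 and -0.78 normalized RPKM. In the first of them every cKO library lay narrowly below every WT library (highest cKO 1.8075, lowest WT 1.8125). In the second and the third the groups overlapped. Leaving out 1 library moved them to between -0.63 and -0.28, 0.035 and 0.61, and -1.43 and -0.32.

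**Figure D1:**
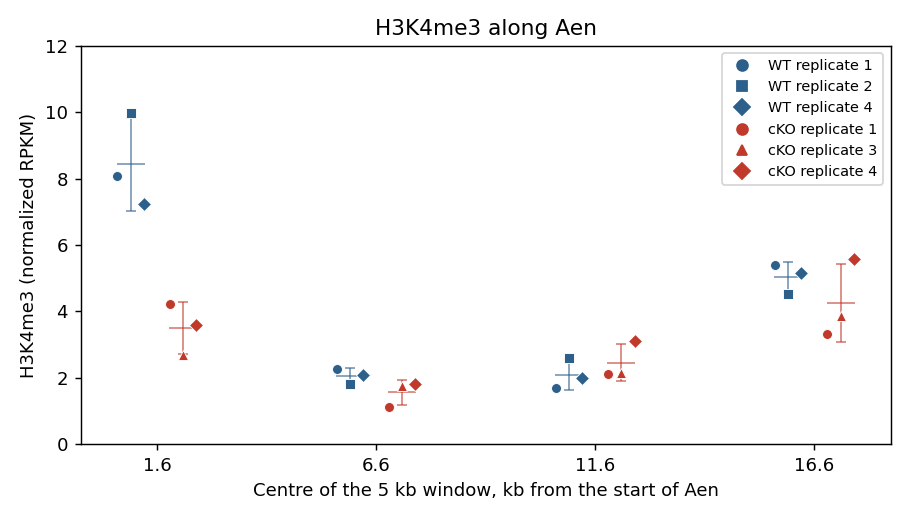
H3K4me3 in normalized RPKM (vertical axis) in the 4 windows of *Aen*, placed by the distance in kb of the window centre from the gene start. Points are single libraries and horizontal marks with bars the mean ± SD of 3 libraries. The WT libraries sit between 7.22 and 9.98 and the cKO libraries between 2.68 and 4.22 in the promoter window.

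The promoter windows whose 6 values lay closest to those of *Aen* (Euclidean distance over the 6 libraries, among 20268 windows with a protein-coding start) were those of *Rfpl4*, *Rac1*, *Nlrp14*, *Pttg1* and *Mroh7*, at distances from 1.67 to 2.60 normalized RPKM. *Rfpl4*, a RING finger gene expressed in oocytes, had 5.22, 3.47 and 4.31 in cKO and 8.40, 9.30 and 7.52 in WT. *Nlrp14*, a member of the NLR family expressed in germ cells, had 4.72, 3.08 and 4.12 in cKO and 6.46, 9.21 and 5.99 in WT. *Pttg1* (securin), an inhibitor of separase, had 5.06, 3.87 and 4.46 in cKO and 7.04, 9.21 and 6.11 in WT. In *Aen* and in all 5 windows WT replicate 2 was the highest library. cKO replicate 3 was the lowest in *Aen* and in 4 of the 5, and in *Rac1* the lowest was cKO replicate 4 (3.54, against 3.74 in cKO replicate 3). These windows were chosen for their likeness, so the values carry no test.

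For the other 8 genes the levels of the promoter windows in WT followed, on the normalized RPKM scale, the order *Trp63* 6.01 ± 0.852, *Mdm2* 4.90 ± 0.630, *Ccng1* 4.81 ± 1.04, *Cdkn1a* 4.52 ± 0.243, *Bax* 4.44 ± 0.798, *Trp53* 4.17 ± 0.317, *Bbc3* 3.61 ± 1.06 and *Pmaip1* 3.24 ± 0.220 normalized RPKM (SD, n = 3). *Trp63* and *Mdm2* differed by more than the larger of their SDs, and each other pair of neighbours in this order by less. These windows stood between the 39.4th percentile (*Pmaip1*) and the 87.6th percentile (*Trp63*) of protein-coding promoters, below the place of *Aen*. As RPM over input in WT, *Ccng1* (3.26) stood above *Trp63* (2.62). Among the promoter windows of these 8 genes the cKO mean was higher in 7 (54.5% of protein-coding promoters). The value on whole reads in edgeR was also higher in 7 (43.1% of protein-coding promoters). All cKO libraries exceeded all WT libraries in 3 (*Trp53*, *Cdkn1a* and *Pmaip1*), against 15.3% of protein-coding promoters.

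**Figure D2:**
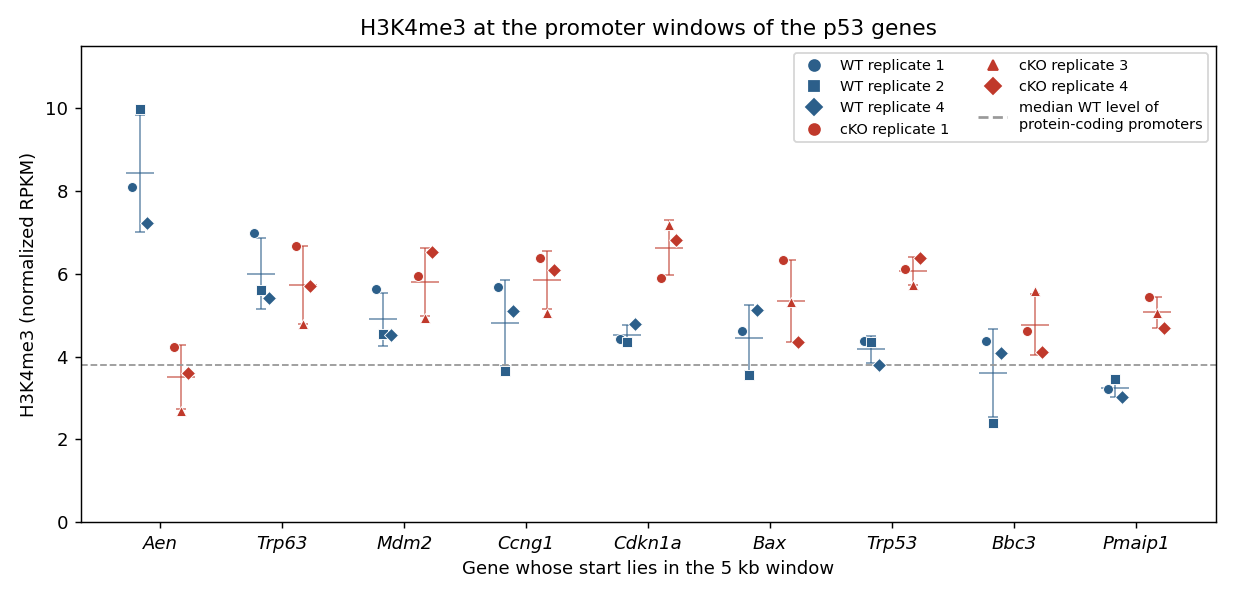
H3K4me3 in normalized RPKM (vertical axis) at the 5 kb window that holds the start of each of the 9 genes, ordered by the WT mean. Points are single libraries, horizontal marks with bars the mean ± SD of 3 libraries, and the dashed line is the median WT level of protein-coding promoters (3.81). *Aen* is the only gene with every cKO library below every WT library, and *Cdkn1a*, *Trp53* and *Pmaip1* have every cKO library above.

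Among the 64 windows of the 8 genes, limma called 2 gains and 0 losses at an adjusted p under 0.05, against 0.563% of all 544879 windows called as gains and 0.454% as losses. Both gains were promoter windows, of *Cdkn1a* and of *Pmaip1*. At an unadjusted p under 0.05 there were 4 windows, all with the higher mean in cKO (over all windows, 6.82% were higher and 8.12% lower in cKO at this threshold), and edgeR on whole reads called 0 in either direction. Without cKO replicate 1 there were 3 gains, in a fit that called 1.71% of all windows as gains, and without any 1 of the other 5 libraries there were 0, in fits that called 0.234% (without cKO replicate 3) or 0% of all windows as gains. Leaving out 1 library moved the difference by over 1.5 times in 52 of the 64 windows. All cKO libraries lay above all WT libraries in 6 of the 64 windows, where the share over all windows was 9.88%, and below them in 2, where it was 9.95%. The cKO mean was higher in 42 of the 64 windows (65.6%), against 43.7% of all windows, and the median difference was 0.20 normalized RPKM, against -0.10 over all windows. On whole reads in edgeR 51 of the 64 windows had the higher value in cKO, against 55.1% of all windows, and without cKO replicate 3 the cKO mean was higher in 38, with a median difference of 0.075 (-0.087 over all windows). Leaving *Trp63* aside, 18 of 21 windows had the higher cKO mean, with a median difference of 0.54, and without cKO replicate 3 it was 15 of 21 with a median of 0.36.

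**Figure D3:**
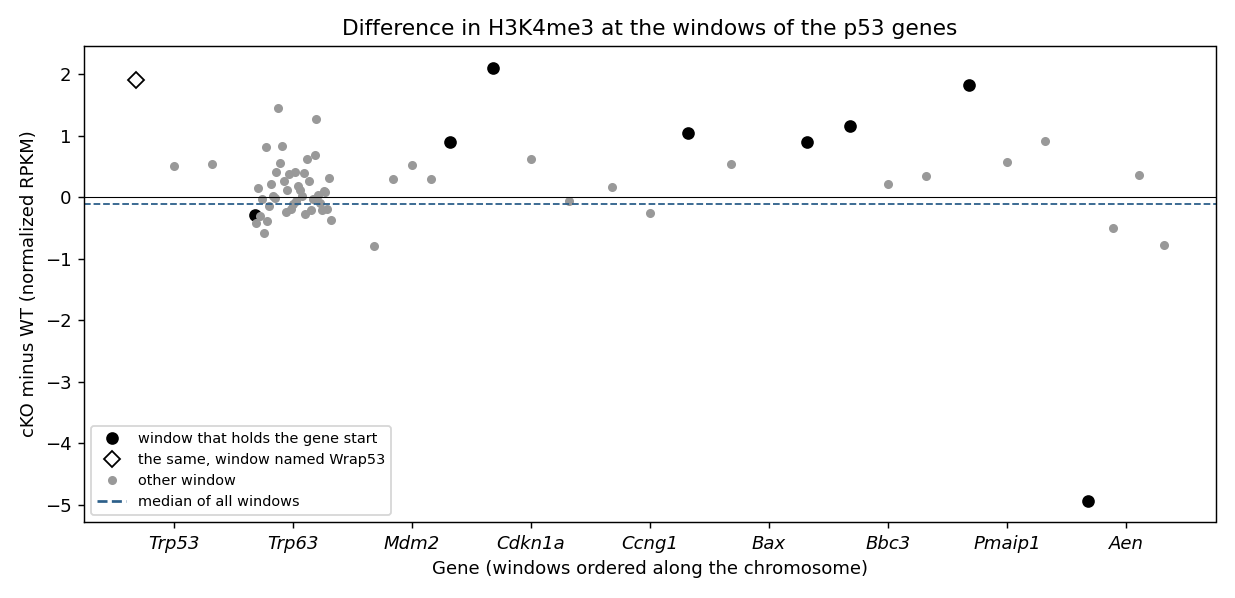
Difference in H3K4me3 (cKO minus WT, normalized RPKM, vertical axis) for the 68 windows and for the window with the *Trp53* start, which is named *Wrap53* and drawn as an open diamond. Filled black points hold the start of the gene, grey points are its other windows, and the dashed line is the median of all windows (-0.10). The *Aen* promoter window stands alone at -4.93, and the other starts, except that of *Trp63*, lie above 0.

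*Trp53* lies at chr11:69580359-69591873 on the plus strand and shares its promoter with *Wrap53*, which is transcribed in the opposite direction. The table gives each window 1 name, so the window with both starts, chr11:69580001-69585000, is named *Wrap53* and is not among the 68. In this window cKO replicates 1, 3 and 4 had 6.11, 5.72 and 6.39 and WT replicates 1, 2 and 4 had 4.37, 4.34 and 3.81. All cKO libraries exceeded all WT libraries, with a difference of 1.90 normalized RPKM and an SE of 0.357 (limma, adjusted p = 0.0430). The reads of the 2 promoters cannot be separated at this width. On whole reads the log2 fold change in edgeR was 0.36 (adjusted p = 0.811), and in RPM cKO replicate 3 (4.28) lay below WT replicate 1 (5.20). The adjusted p in limma was 0.0571 without cKO replicate 3, 0.131 without cKO replicate 4, and 0.140, 0.131 and 0.186 without WT replicates 1, 2 and 4. All of these fits but the first called 0% of all windows as gains. The adjusted p was 0.105 with an intensity trend and 0.123 with quantile normalization. On the scales log2(value + 1) and log2(value + 0.1) it was 0.303 and 0.452. Over all alternatives without the replicate block the lowest was 0.0364.

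The windows named *Trp53* cover the rest of the gene. The first had 1.34, 1.62 and 1.95 in cKO and 1.02, 1.42 and 0.929 in WT. The second had 0.952, 2.02 and 1.95 in cKO and 1.18, 0.937 and 1.17 in WT. Both stood near the level of the median window in both genotypes and the groups overlapped (adjusted p = 0.491 in limma for each, differences 0.51 and 0.55). The second difference was 0.89 without cKO replicate 1 and 0.36 without cKO replicate 3.

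*Trp63* lies at chr16:25683763-25892102 on the plus strand and, with 208340 bases, holds 43 of the 68 windows. The TA transcripts start in the first of these windows, chr16:25680001-25685000, and the ΔN transcripts start at chr16:25801916, in the window chr16:25800001-25805000, whose centre lies 119 kb from the gene start. The TA window carried 6.66, 4.79 and 5.71 normalized RPKM in cKO and 6.98, 5.61 and 5.43 in WT. The groups overlapped and the difference was -0.28 with an SE of 0.556 (limma, adjusted p = 0.816). The ΔN window carried 1.12, 1.10 and 0.988 in cKO and 1.02, 0.548 and 1.08 in WT. These are values of windows with little or no enrichment: the RPM was 0.520 times input in cKO and 0.248 times input in WT. The TA window thus stood above the ΔN window in each of the 6 libraries.

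Away from the starts, *Trp63* had 2 further elevated stretches, and neither holds an annotated exon of the gene. The window chr16:25750001-25755000, whose centre lies 68.7 kb from the start, had 6.83, 5.19 and 6.97 in cKO and 6.20, 5.61 and 5.52 in WT, close to the level of the TA window. The window before it, chr16:25745001-25750000, had 2.84, 3.47 and 3.35 in cKO and 1.80, 1.62 and 1.89 in WT. All cKO libraries exceeded all WT libraries there, and the difference of 1.45 (SE 0.342) had the lowest adjusted p of the gene (0.0777 in limma). Without cKO replicate 1 its adjusted p was 0.0407, which passes the threshold, and without any other single library it lay between 0.135 and 0.2497. The other stretch begins at chr16:25845001, where the first window had 4.17, 6.25 and 2.96 in cKO and 3.74, 3.37 and 4.20 in WT. The next window along it had 3.67, 4.27 and 3.74 in cKO and 2.43, 2.88 and 2.52 in WT, again without overlap (difference 1.28, SE 0.348, adjusted p = 0.113 in limma).

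The remainder of *Trp63* was low. A WT mean under 2 was found in 38 of its 43 windows and a WT mean of at least 3 in 3, and the median was 1.26 in WT and 1.25 in cKO. The lowest difference of the gene, -0.58, was in chr16:25705001-25710000 (cKO 0.952, 0.305 and 0.795, WT 1.18, 1.42 and 1.20, adjusted p = 0.479 in limma). cKO replicate 3 was the highest or the lowest library in 26 of the 43 windows. The cKO mean was higher in 24 of them.

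**Figure D4:**
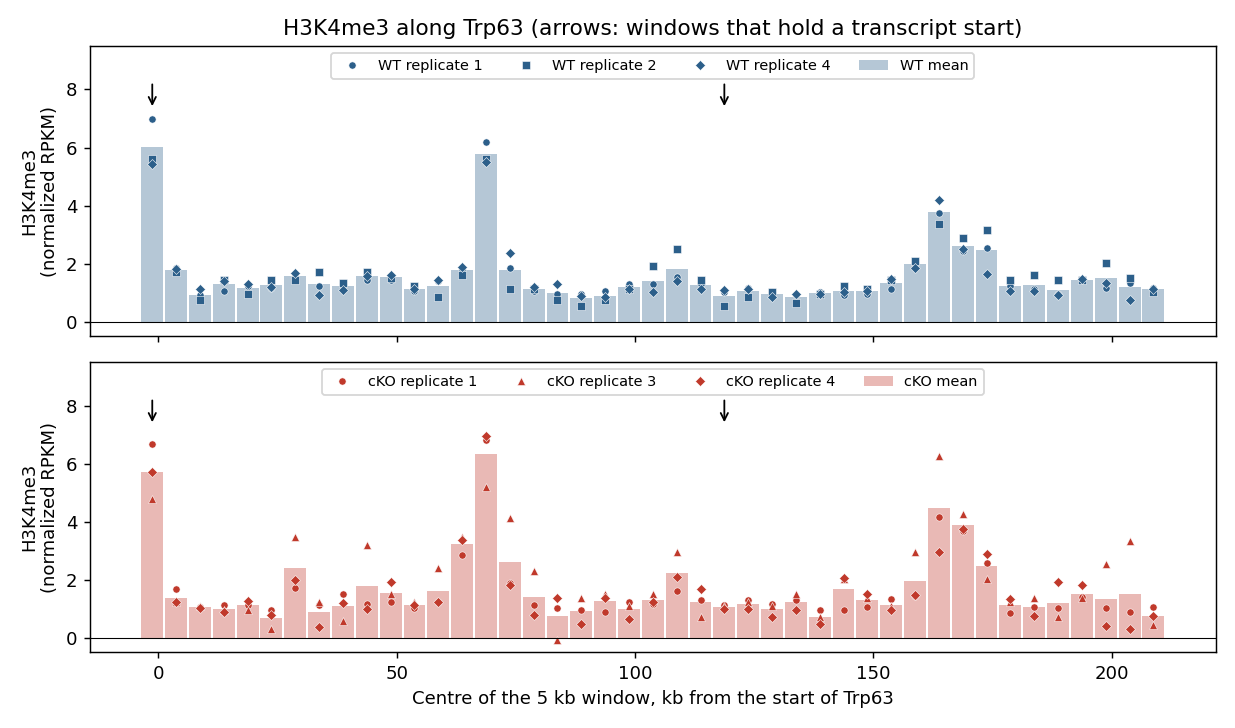
H3K4me3 in normalized RPKM (vertical axes) in the 43 windows of *Trp63*, placed by the distance in kb of the window centre from the gene start, with WT above and cKO below. Bars are means of 3 libraries, points single libraries, and arrows the windows that hold the TA start (left) and the ΔN start (right). The TA window has a mean of 6.01 in WT and 5.72 in cKO, and the ΔN window 0.882 and 1.07.

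*Mdm2* lies at chr10:117688875-117710758 on the minus strand, in 5 windows. Its promoter window, chr10:117710001-117715000, had 5.94, 4.93 and 6.53 in cKO and 5.62, 4.54 and 4.53 in WT. The groups overlapped, with a difference of 0.91 (SE 0.488, adjusted p = 0.434 in limma), which was 0.54 without cKO replicate 4. This window holds the start of 8 annotated transcripts of the gene. The window furthest downstream of the 5, chr10:117690001-117695000, had the lowest difference of the gene, -0.79, with 1.06, 1.62 and 0.795 in cKO and 1.33, 2.59 and 1.92 in WT (adjusted p = 0.427 in limma, and a difference of -0.47 without WT replicate 2). The 3 windows between them lay from 1.64 to 2.34 in cKO and from 1.35 to 2.04 in WT as means.

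Of the arrest genes, *Cdkn1a* encodes p21, the inhibitor of cyclin-dependent kinases through which p53 stops the cell cycle. It lies at chr17:29090976-29100727 on the plus strand. Its promoter window, chr17:29090001-29095000, held the half-site pair printed above and had 5.89, 7.17 and 6.82 in cKO and 4.42, 4.34 and 4.80 in WT. All cKO libraries exceeded all WT libraries, and H3K4me3 rose by 2.11 normalized RPKM with an SE of 0.406 (limma, adjusted p = 0.0459). On whole reads the log2 fold change in edgeR was 0.30 (adjusted p = 0.848), and in RPM cKO replicate 3 (5.21) lay below WT replicate 1 (5.27). The adjusted p was 0.0908 without cKO replicate 3, 0.143 without cKO replicate 4, 0.157 without WT replicate 1, 0.155 without WT replicate 2 and 0.135 without WT replicate 4, and the lowest of the alternatives without the replicate block was 0.0211. The next window, which holds the start of a shorter transcript, had 5.55, 6.38 and 5.04 in cKO and 4.84, 5.22 and 5.04 in WT, and these overlapped (difference 0.63, adjusted p = 0.491 in limma, and 0.27 as the difference without cKO replicate 3). In the last window, with 1.62, 2.02 and 0.457 in cKO and 1.28, 1.81 and 1.17 in WT, the mark was at the level of the median window.

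*Ccng1* encodes cyclin G1, which p53 induces and which acts back on MDM2. It lies at chr11:40748552-40755311 on the minus strand, and its promoter window, chr11:40755001-40760000, had 6.39, 5.06 and 6.10 in cKO and 5.68, 3.66 and 5.10 in WT. The values overlapped (difference 1.04, SE 0.552, adjusted p = 0.427 in limma), and the difference was 0.46 without WT replicate 2. Its lowest difference, -0.25, was in the middle of the gene, where cKO had 2.73, 1.23 and 2.10 and WT 2.33, 2.202 and 2.28 (adjusted p = 0.776 in limma).

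Among the apoptosis genes, *Bax* encodes the protein that opens the outer mitochondrial membrane, and *Bbc3* and *Pmaip1* encode BH3-only proteins that release it from restraint. *Bax* lies at chr7:45461697-45466898 on the minus strand. Its promoter window, chr7:45465001-45470000, had 6.33, 5.32 and 4.36 in cKO and 4.63, 3.56 and 5.13 in WT, with overlap (difference 0.90, SE 0.557, adjusted p = 0.491 in limma), and the difference was 0.40 without cKO replicate 1, 0.46 without WT replicate 2 and 1.39 without cKO replicate 4. The window over its 3′ part had 1.73, 1.89 and 1.95 in cKO and 1.44, 1.23 and 1.29 in WT, which did not overlap but differed by 0.54 (adjusted p = 0.487 in limma). *Bbc3* lies at chr7:16308393-16318205 on the plus strand. Its promoter window, chr7:16305001-16310000, had 4.61, 5.59 and 4.12 in cKO and 4.37, 2.40 and 4.08 in WT (difference 1.16, SE 0.566, adjusted p = 0.380 in limma), and without WT replicate 2 or cKO replicate 3 the difference was 0.55 or 0.75. The following window, with 243 CpGs the richest of the 68, had 5.72, 6.11 and 4.51 in cKO and 5.78, 5.22 and 4.71 in WT, a difference of 0.21 (adjusted p = 0.841 in limma).

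*Pmaip1* lies in 3 windows of chromosome 18. Its promoter window had 5.44, 5.06 and 4.70 in cKO and 3.22, 3.47 and 3.03 in WT. All cKO libraries exceeded all WT libraries, and H3K4me3 rose by 1.83 normalized RPKM with an SE of 0.352 (limma, adjusted p = 0.0456). In RPM the values were 6.58, 3.86 and 3.86 in cKO and 3.52, 3.32 and 2.78 in WT, so the groups did not overlap there, while the log2 fold change in edgeR was 0.56 (adjusted p = 0.642). The adjusted p was 0.0805 without cKO replicate 3, 0.0975 without cKO replicate 4, 0.166 without WT replicate 1, 0.130 without WT replicate 2 and 0.189 without WT replicate 4, and the lowest of the alternatives without the replicate block was 0.0384. The other windows of *Pmaip1* had differences of 0.57 and 0.92 (adjusted p = 0.491 and 0.449 in limma), and these were 0.26 without cKO replicate 4 and 0.53 without cKO replicate 3.

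Averaged over all windows of a gene, 0 of the 8 genes passed the threshold in limma over 24678 genes, where 1.39% of genes were called as gains and 0.523% as losses. *Pmaip1* came closest, with 3.54 ± 0.279 in cKO and 2.44 ± 0.153 in WT (SD, n = 3; adjusted p = 0.0559 in limma). *Cdkn1a* had 4.55 ± 0.568 and 3.66 ± 0.139 (adjusted p = 0.155 in limma), and the other 6 genes had adjusted p-values from 0.234 to 0.678. Without cKO replicate 1, 2 genes passed, *Pmaip1* and *Trp53*, in a fit that called 8.83% of all genes as gains.

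The 64 windows were described by their CpG content, which the choice of the genes did not use. In the genome 0.826% of positions were CpG, with a median of 35 CpGs in a window, and the 68 windows had a median of 42. Of the 8 windows with at least 100 CpGs, 8 had the higher cKO mean in normalized RPKM (median difference 0.90). With the replicate block 7 had the higher value in cKO (median 0.57). On whole reads in edgeR 6 had it, against 55.1% of all windows of any CpG content. Of all windows in the genome with at least 100 CpGs, 58.7% had the higher cKO mean in normalized RPKM (median difference 0.23). Of the 15 windows with 50 to under 100 CpGs, 10 had the higher cKO mean (median 0.29, all such windows 0.23), and of the 41 with fewer CpGs, 24 had it (median 0.08, all such windows -0.17). Spearman's rho between CpG content and the difference was 0.407 over the 64 windows and 0.303 over all windows, as a description of windows that share libraries and, within a gene, their neighbourhood. *Aen*, with 129 CpGs in its promoter window, lay far from this relation, which follows from its choice as a large loss. The TA window of *Trp63* was high with 42.

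**Figure D5:**
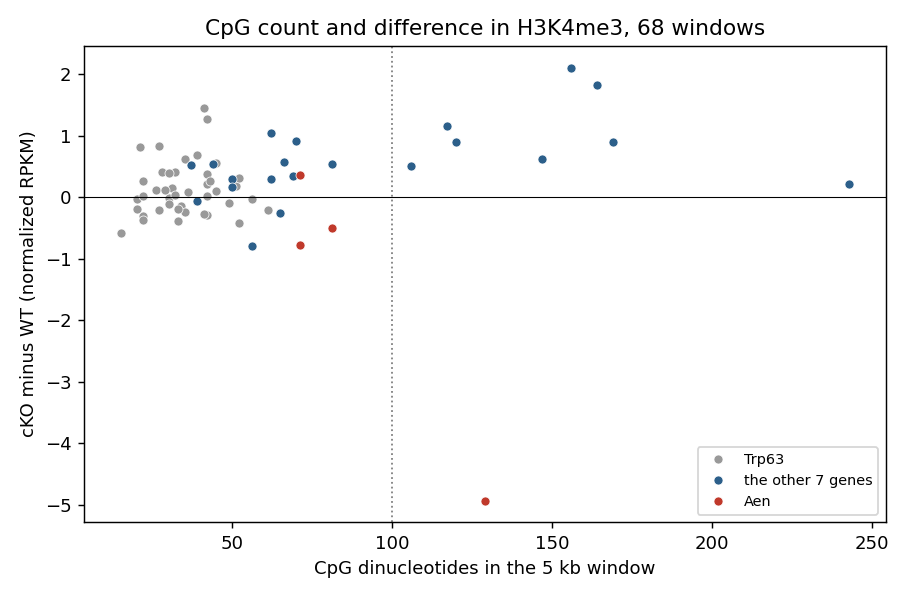
CpG dinucleotides in each of the 68 windows (horizontal axis) and difference in H3K4me3, cKO minus WT, in normalized RPKM (vertical axis). Each point is 1 window, grey for *Trp63*, blue for the other 7 genes and red for *Aen*, and the dotted line marks 100 CpGs. To its right every point except the *Aen* promoter window, at -4.93, lies above 0.

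The wider pathway was read at the promoter windows of 56 further genes, all of which were measured. Of these, 1 passed as a gain and 0 as a loss in limma, against the same 1.17% and 0.776% of protein-coding promoters, and 16 had an unadjusted p under 0.05, where the share of protein-coding promoters was 24.6%. All cKO libraries lay above all WT libraries in 10 promoters and below them in 6, where the shares of protein-coding promoters were 15.3% and 8.9%. The cKO mean was higher in 33 of the 56 with a median difference of 0.49 normalized RPKM (higher in 54.5% of protein-coding promoters, median 0.10), while on whole reads in edgeR the value was higher in 21 of 56 with a median log2 fold change of -0.07 (higher in 43.1% of protein-coding promoters, median -0.07). By group, the cKO mean was higher in 6 of 11 family members and regulators, 1 of 5 damage kinases, 7 of 10 arrest targets, 8 of 11 apoptosis targets, 4 of 9 repair and metabolism targets and 7 of 10 genes of the BCL2 family. On whole reads in edgeR these counts were 4, 0, 4, 6, 2 and 5 in the same order, so that genes with the higher value in cKO went from the majority to the minority in the whole list, in the family members and regulators and in the arrest targets. The median difference of the 56 was 0.27 without cKO replicate 3, 0.28 without WT replicate 2 and 0.30 without cKO replicate 1.

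The gene that passed was *Ppp1r13b* (ASPP1), a cofactor that steers p53 to apoptosis genes, with 6.16, 6.38 and 5.76 in cKO and 4.47, 3.95 and 4.02 in WT (difference 1.95, SE 0.351, adjusted p = 0.0381 in limma). It did not pass without cKO replicate 3 (adjusted p = 0.0747), without cKO replicate 4 (0.0920) or without WT replicate 1, 2 or 4 (0.119, 0.139 and 0.159), and the adjusted p in edgeR was 0.813. Without cKO replicate 4 or any 1 WT library, limma called 0% of all windows as gains, so no window could pass there. The lowest adjusted p of *Ppp1r13b* among the alternatives without the replicate block was 0.0325 in limma. *Trp73*, the remaining member of the p53 family, had 5.61, 5.72 and 5.13 in cKO and 5.20, 5.22 and 4.08 in WT (difference 0.65, and 0.28 without WT replicate 4, adjusted p = 0.491 in limma with all libraries). *Mdm4*, the partner of MDM2, had 4.72, 4.93 and 4.12 in cKO and 6.36, 8.14 and 5.43 in WT. All its cKO libraries lay below all WT libraries, and the difference of -2.05 did not pass (SE 0.609, adjusted p = 0.142 in limma). It was -1.30 without WT replicate 2. *Chek2*, the kinase that activates TAp63 and p53 in oocytes after DNA damage, had 3.78, 2.95 and 4.31 in cKO and 4.47, 4.15 and 3.93 in WT, with overlap (adjusted p = 0.536 in limma).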

How the data were processed

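The analysis used 6 H3K4me3 ULI-nChIP-seq libraries of GV oocytes, 3 of each genotype, and 4 input libraries. The submitters' processing notes name Trim Galore 0.4.2, Bowtie2 2.2.9 and GRCm38. The authors removed mappings of low quality and libraries with poor enrichment, and used SeqMonk to quantify windows of 5 kb. For H3K4me3 they deposited a score, RPKM after enrichment normalization, not log-transformed. For input they deposited a signal, the reads of a window scaled to library size (RPM). Every value was a whole number of read steps (100% of values within 0.001), from which whole reads were recovered. Duplicates cannot be told from independent fragments.

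Differences were fitted by limma 3.58.1 (R 4.3.3) to the deposited values, without an intensity trend or a replicate block (two-sided, Benjamini-Hochberg over 544879 windows, adjusted p under 0.05). edgeR 4.0.16 on whole reads (quasi-likelihood, TMM) was an alternative. Both tests were checked on simulated data. An exact permutation test of 3 libraries against 3 cannot give p under 0.1, so none was used. Gene starts and exons came from GENCODE M21, CpG counts and half-sites from the GRCm38.p6 sequence, and promoters from RefSeq. The last windows of 21 of 21 chromosomes ended within their length. A promoter window holds the gene start.

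The members and lists were chosen with earlier results of these data known. Named windows are those with the start, the highest and the lowest difference of each gene, other transcript starts, called windows, the called genes of the pathway list with *Trp73*, *Mdm4* and *Chek2*, and the 5 promoter windows nearest to *Aen*. Further windows of the 9 genes and further nearby values were named after their values were seen. p-values measure the spread between pools of oocytes. Other marks and expression data of the study were not used here.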

Additional observations from a re-analysis of the deposited data

How the results depend on the processing

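The 2 gains among the 64 windows of the genes other than *Aen* became 0 with an intensity trend, log2(value + 1), log2(value + 0.1), quantile normalization, edgeR on whole reads and an adjusted p under 0.01, and ranged from 0 to 3 when 1 library was left out. The 1 gain of the pathway list became 0 with the intensity trend, both log2 scales, quantile normalization and edgeR, and ranged from 0 to 2 without 1 library. Its 0 losses became 3 with the intensity trend and 1 with edgeR. They ranged from 0 to 2 without 1 library, with 2 without cKO replicate 1, where 1.59% of all windows were called as losses. For the intensity trend and edgeR the share of all windows is not given, so those counts are no result about the list. Over gene means the 0 gains became 1 (*Pmaip1*) with the intensity trend and with quantile normalization, and ranged from 0 to 2 without 1 library. Losses among the windows and among the genes stayed at 0 under every alternative. Without cKO replicate 4 or any 1 WT library, 0% of all windows and of all genes were called as gains, so no gain could be called there.

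Replicate numbers 1 and 4 occur in both genotypes. The deviations of same-numbered libraries from their group means correlated with r of 0.319 for number 1 and 0.019 for number 4, and those of unlike numbers with r from -0.227 to 0.133. The labels tie a number to no shared litter or day, and with 2 pairs the libraries were taken as unpaired. In the fit with the replicate block, WT replicate 2 and cKO replicate 3 have no partner. The difference then rests on replicates 1 and 4 alone, with 1 residual degree of freedom. With the replicate block the count of gains among the 64 windows stayed at 2. The pathway list had 6 gains and 4 losses, among them *Mdm4* (adjusted p = 0.0374 in limma, 0.0720 to 0.582 under its other alternatives). The share of all promoters called in the block fit is not given, so these counts are no result about the list. With the block the median difference was 0.038 over the 64 windows, 0.30 over the 21 windows outside *Trp63* (16 of them higher in cKO) and 0.21 over the pathway list, and the difference was 0.14 at the promoter of *Bbc3* and 0.47 at that of *Bax*.

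Of 285 alternatives for 22 single windows of genes other than *Aen*, 231 kept direction and side of the threshold, 40 lost the threshold, 12 changed sign, and 2 gained it, *Mdm4* with the replicate block and the window of *Trp63* at chr16:25745001 without cKO replicate 1. The windows that changed sign had no call. They were the *Trp63* TA window (-0.75 to 0.21 without 1 library, with 0.18 without cKO replicate 3), the lowest windows of *Cdkn1a* (-0.38 to 0.40 without 1 library, 0.19 in edgeR), *Ccng1* (0.11 with the replicate block, -0.61 to 0.14 without 1 library) and *Bbc3* (-0.13 with the block, -0.12 to 0.68 without 1 library, -0.17 in edgeR), and the *Trp73* promoter (-0.028 in edgeR). Taken as RPM over input, the WT percentile among protein-coding promoters moved from 57.3 to 45.5 for *Trp53*, from 87.6 to 68.9 for *Trp63*, from 71.3 to 58.0 for *Mdm2* and from 64.2 to 52.5 for *Cdkn1a*. That of *Ccng1* went from 69.7 to 83.8, within its spread between libraries, and that of *Aen* from 99.5 to 99.6. The cause of these changes was not tested. A promoter window held 25 to 231 reads in each H3K4me3 library, which limits what single windows can show.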
